A study of Mus musculus with 12 samples.

Results

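The mRNAs for the subunits of the mouse proteasome and for the proteins that activate or assemble it were measured in 3 cell lines. Genes were taken by symbol, namely those that begin with Psm, continue with a letter from a to g and end in a number, with or without further letters, and 47 of the 25128 genes and unnamed targets measured matched. Of these, 45 belong to the proteasome, and Psmc3ip and Psme3ip1, whose products interact with a subunit or an activator, matched by name only and are given apart. Psma8, Psmf1, Psmg4 and Psme2b had no matched target and were not analysed here. Total RNA came from 4 plates labelled AtT20, a mouse pituitary tumor line, 4 plates of the mouse microglial line BV2, which was kept in conditions meant to hold it in a resting state, and 4 plates of the mouse neuroblastoma line N18. All 12 plates were grown separately in the same serum-containing medium, none was treated, and each was hybridized to 1 single-color array. Each line was an established culture, so the 4 plates measure the spread between cultures of 1 line, and the lines differ in their origin as well as in their cell type.

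The proteasome is the protease complex that breaks down proteins tagged with ubiquitin. Its barrel-shaped core is built of alpha (Psma) and beta (Psmb) subunits, of which Psmb5, Psmb6 and Psmb7 carry the constitutive proteolytic sites, with chymotrypsin-like, caspase-like and trypsin-like activity. Interferon gamma induces Psmb8, Psmb9 and Psmb10, which take the places of Psmb5, Psmb6 and Psmb7 in newly made cores and give the immunoproteasome, whose products feed MHC class I presentation. Microglia are known to hold such cores when they are activated. The regulatory particle that unfolds substrates is made of ATPases (Psmc) and other subunits (Psmd), and Psme1 to Psme4 encode activators that bind the core in its place.

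The promoters of 5 of the 6 catalytic genes are shown because these genes carry the contrast between the immunoproteasome and the constitutive core. Each stretch holds the 250 bases before the annotated start of the gene, 5′ to 3′ on the strand of the gene, from RefSeq (GRCm38.p6). Capitals mark matches, on either strand, to the 4 motifs searched, which were GAAANNGAA (interferon response type), TTCNNNGAA (gamma-activated sequence type), TGACNNNGC (antioxidant response type) and GGGCGG (GC box).
Psmb8, chr17:34197945-34198194, plus strand: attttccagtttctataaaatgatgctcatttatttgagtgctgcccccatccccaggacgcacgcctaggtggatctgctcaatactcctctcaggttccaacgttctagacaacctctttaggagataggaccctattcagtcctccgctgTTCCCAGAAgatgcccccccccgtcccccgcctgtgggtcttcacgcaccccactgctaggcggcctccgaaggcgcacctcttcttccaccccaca
Psmb9, chr17:34187331-34187580, minus strand: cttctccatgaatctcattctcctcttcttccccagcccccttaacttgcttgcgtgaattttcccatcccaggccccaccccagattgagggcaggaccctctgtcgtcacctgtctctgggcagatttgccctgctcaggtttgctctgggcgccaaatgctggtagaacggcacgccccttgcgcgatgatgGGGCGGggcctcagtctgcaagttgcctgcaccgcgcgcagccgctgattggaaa
Psmb10, chr8:105938393-105938642, minus strand: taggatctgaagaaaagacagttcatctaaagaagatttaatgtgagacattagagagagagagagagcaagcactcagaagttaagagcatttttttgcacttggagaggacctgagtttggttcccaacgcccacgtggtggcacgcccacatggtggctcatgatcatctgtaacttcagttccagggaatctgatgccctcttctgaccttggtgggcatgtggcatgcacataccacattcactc
Psmb5, chr14:54617996-54618245, minus strand: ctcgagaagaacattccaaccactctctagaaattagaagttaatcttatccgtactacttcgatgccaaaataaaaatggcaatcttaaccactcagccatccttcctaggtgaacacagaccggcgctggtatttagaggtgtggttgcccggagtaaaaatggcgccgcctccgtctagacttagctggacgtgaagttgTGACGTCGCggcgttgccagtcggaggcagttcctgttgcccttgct
Psmb6, chr11:70525107-70525356, plus strand: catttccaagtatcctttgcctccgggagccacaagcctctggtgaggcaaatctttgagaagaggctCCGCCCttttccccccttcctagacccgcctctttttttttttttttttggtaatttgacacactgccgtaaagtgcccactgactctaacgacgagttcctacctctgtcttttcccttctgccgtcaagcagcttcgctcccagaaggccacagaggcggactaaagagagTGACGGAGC
Psmb8 held 1 TTCNNNGAA match, Psmb9 held 1 GC box and Psmb10 held none of the 4 motifs. Psmb5 held 1 TGACNNNGC match, and Psmb6 held 1 TGACNNNGC match and 1 GC box. None of the 5 held GAAANNGAA. No matches of different motifs overlapped in these 5 stretches. Over the 44 windows of the 40 genes with an entry (4 genes had 2), GAAANNGAA was found in 3 (Psmb3, Psmd4 and Psmd9), TTCNNNGAA in 2 (Psmb8 and Psmg1), TGACNNNGC in 5 (Psmb5, Psmb6, Psmc6, Psmd9 and Psmd12) and GGGCGG in 23. The same motifs were found in 7.1%, 7.0%, 10.2% and 32.7% of all 32851 windows. These matches describe letters and not binding. Psmb7 had no entry, as did Psmb1, Psmb2, Psmc3, Psmd3, Psmd7 and Psmg2. On chromosome 17, Psmb9 and Psmb8 flank Tap1, a subunit of the peptide transporter of the MHC class I pathway, with Tap2 next, and the promoter windows of Psmb9 and Tap1 share 275 bases.

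Most proteasome genes were above the expression threshold in each line. A gene passed when its level on a line's plates, in log2 units over the mean of 10 seminal protein genes that serve as negative controls, exceeded 2 SD of those controls, which came to 0.37 for AtT20, 0.56 for BV2 and 0.74 for N18. On the plates labelled AtT20, 37 of 45 genes passed, where 35% of all 25128 features did. In BV2, 44 of 45 passed (53.3% of all features), and in N18 44 of 45 did (55.4%). The gene that did not pass in BV2 or N18 was Psmb11, the catalytic subunit of cortical thymic epithelium, which stayed under the AtT20 threshold as well. All 6 ATPases, all 11 other subunits of the regulatory particle and all 4 activators passed in the 3 lines. The 7 others below the threshold on the AtT20 plates were Psmb1, the assembly chaperones of the base, Psmd5, Psmd9 and Psmd10, and the assembly chaperones of the core, Psmg1, Psmg2 and Psmg3.

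The plates labelled AtT20 stood apart from the rest. Their intensities spanned an interquartile range of 0.38 to 0.78 (log2), against 1.28 to 1.73 for BV2 and 1.91 to 2.21 for N18, and their plates correlated less well with each other (r across features of 0.914 to 0.963) than those of BV2 (0.972 to 0.992) or N18 (0.981 to 0.992). Of 8 corticotroph genes, 1 (Pitx1) passed there, and Pomc (level 0.29 over the controls) and Tbx19 (0.02), which define the pituitary cells this line came from, did not. Of the same 8 genes, 4 passed in N18 and 2 in BV2, with Tbx19 in both (1.46 and 1.43) and Pomc in BV2 (0.67), so that this list did not set the AtT20 plates apart. Of 7 microglia genes, 6 passed in BV2, with levels of 3.85 to 4.70 for these 6, and Aif1 (0.30) did not, while 2 (Itgam at 0.80 and Tyrobp at 1.12) passed in N18 and 0 on the AtT20 plates. Of 8 neuroblastoma genes, 7 passed in N18, 4 in BV2 and 5 on the AtT20 plates. The levels that passed were 1.11 to 5.05 in N18, 0.59 to 1.24 in BV2 and 0.38 to 4.46 on the AtT20 plates. The gene that did not pass in N18 was Nefl (-0.09), which was the highest of the list on the AtT20 plates (4.46). Hand2 (2.03) and Tubb3 (2.02) came next there. The label AtT20 was not borne out by these markers, so the comparison of BV2 with N18 is given first and in most detail, and AtT20 is used below as the name on the plates. The arrays come 4 to a slide, and since the labels do not say which plates were on 1 slide, slide and line cannot be told apart.

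Of the catalytic subunits, Psmb10 and Psmb9 rose in BV2 over N18, and so did the constitutive Psmb5, whereas Psmb6 was lower in BV2. Levels are log2 intensities after quantile normalization of the 12 arrays, lines were compared with limma with adjustment over all 25128 features, and errors of differences are standard errors from that fit. Probes of different genes bind differently, so a gene is set here only against itself in another line.

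Psmb10, the inducible counterpart of the trypsin-like Psmb7, read 12.63, 12.88, 12.49 and 12.60 in BV2 and 11.59, 11.62, 11.61 and 11.43 in N18. On the plates labelled AtT20 it read 11.73, 11.34, 11.65 and 11.10. All BV2 plates lay above all others. In bulk RNA, more cells with a transcript and more of it per cell cannot be told apart. The BV2 minus N18 difference was 1.09 ± 0.14 (SE), or 2.13-fold, with a limma adjusted p of 1.36e-05. Its 3 probes gave 0.99, 1.13 and 1.07, and the gene passed in the same direction under all 19 alternative settings, with differences of 0.54 to 1.32.

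Psmb9, the counterpart of the caspase-like Psmb6, read 12.07, 11.88, 12.33 and 12.01 in BV2 and 11.34, 10.96, 11.13 and 11.72 in N18, with no overlap. The AtT20 plates, at 11.65, 12.23, 11.95 and 12.24, overlapped the BV2 plates. BV2 minus N18 was 0.78 ± 0.17, or 1.72-fold (limma adjusted p = 0.00182). The 3 probes gave 1.00, 0.25 and 0.49, and only 1 of them was above the threshold in N18. The call was lost when arrays were not normalized (0.36, adjusted p = 0.215) and when levels were taken relative to the seminal proteins (0.33, adjusted p = 0.286).

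Psmb8, the counterpart of the chymotrypsin-like Psmb5, read 11.84, 11.81, 11.58 and 11.90 in BV2, inside the N18 values of 11.82, 12.11, 11.99 and 11.68 but for 1 plate. The AtT20 plates were lower, at 11.36, 11.03, 11.01 and 11.42. BV2 minus N18 was -0.12 ± 0.14 (limma adjusted p = 0.544), and the 3 probes disagreed in direction (0.28, -0.50 and -0.16). Without normalization Psmb8 was called lower in BV2 (-0.73, adjusted p = 0.00372), as it was relative to the seminal proteins (-0.76, adjusted p = 0.00551). The immunoproteasome genes thus did not move as 1 group between BV2 and N18, with 2 of 3 higher in BV2 and Psmb8 not.

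Psmb5 read 14.18, 14.35, 14.06 and 14.06 in BV2 and 13.41, 13.41, 13.45 and 13.27 in N18. On the AtT20 plates it read 13.56, 13.40, 13.34 and 12.97. The BV2 plates lay above all others, by 0.78 ± 0.13 over N18 (1.71-fold, limma adjusted p = 0.000117), with probes at 0.85, 0.59 and 0.70. Without normalization the difference was 0.17 (adjusted p = 0.601), against the seminal proteins 0.14 (adjusted p = 0.729) and with the median of probes 0.59 (adjusted p = 0.0516), so that the call was lost under these 3 settings.

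Psmb6 read 13.86, 13.76, 13.67 and 13.79 in BV2 and 14.23, 14.10, 14.12 and 14.05 in N18, again without overlap. The AtT20 plates (14.33, 13.93, 13.86 and 13.73) spanned both. Psmb6 was lower in BV2 by 0.36 on the log2 scale (BV2 minus N18 -0.36 ± 0.12, limma adjusted p = 0.0254), and all 3 probes had that direction. The call was lost without BV2 plate 2 (-0.35, adjusted p = 0.0518) or plate 3 (-0.33, adjusted p = 0.0705), and without N18 plate 1 (-0.32, adjusted p = 0.0763) or plate 3 (-0.36, adjusted p = 0.0545). Psmb7 read 14.10, 14.21, 14.15 and 14.29 in BV2 and 14.09, 14.07, 14.18 and 14.18 in N18, which overlapped. Its AtT20 plates read 14.30, 14.58, 14.30 and 14.65. The BV2 minus N18 difference of Psmb7 was 0.06 ± 0.10 (limma adjusted p = 0.683). Psmb11 was below the threshold in all lines, so no fold is given.

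**Figure D1:**
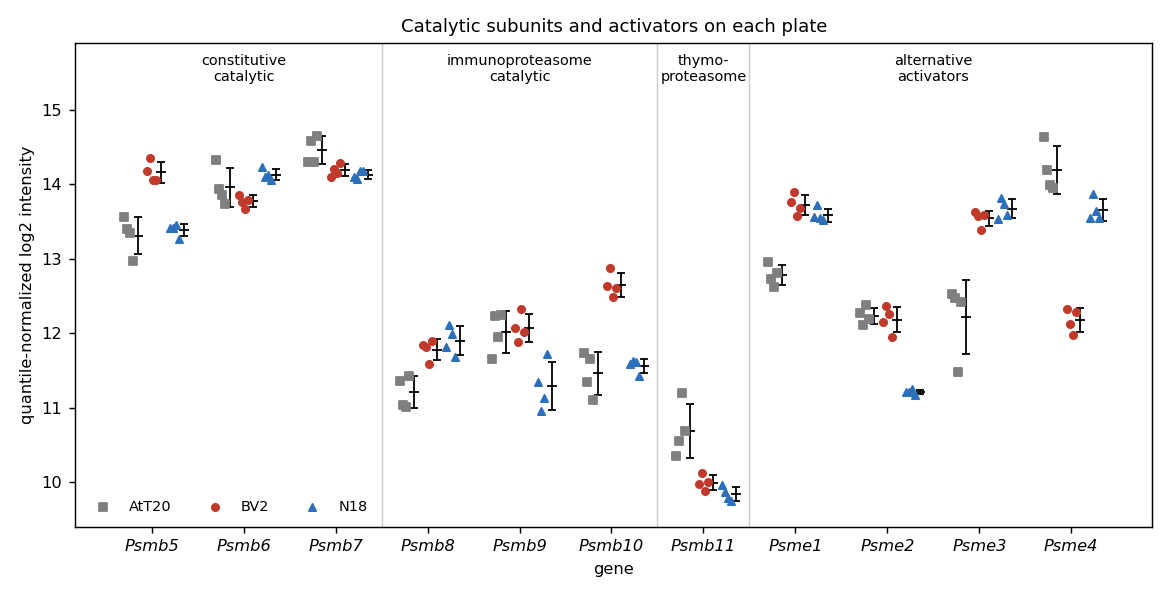
Quantile-normalized log2 intensity of the catalytic subunits and the activators (vertical axis) by gene (horizontal axis), with 1 point per plate for AtT20, BV2 and N18, and the mean ± SD of 4 plates beside them. The BV2 points lie above the N18 points for Psmb5, Psmb9, Psmb10 and Psme2 and below them for Psmb6 and Psme4, and heights of different genes are not comparable.

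The level of the immunoproteasome genes relative to their constitutive counterparts was least negative in BV2. The mean of Psmb8, Psmb9 and Psmb10 minus the mean of Psmb5, Psmb6 and Psmb7 was -1.87, -1.92, -1.82 and -1.88 in BV2, -2.33, -2.29, -2.34 and -2.22 in N18 and -2.48, -2.43, -2.29 and -2.20 in AtT20. Only its change between lines is read, since its size within a line holds the binding of different probes. BV2 lay 0.43 above N18, with SDs of 0.04 and 0.05 (n = 4 plates each), and no BV2 plate overlapped a plate of another line. This value is a description with no test. It came from Psmb9 minus Psmb6, which differed by 1.14 between BV2 and N18, and Psmb10 minus Psmb7, which differed by 1.03. Psmb8 minus Psmb5 went the other way, at -2.33, -2.54, -2.47 and -2.16 in BV2 and -1.59, -1.30, -1.46 and -1.59 in N18, a difference of -0.89. BV2 lay 0.48 above AtT20, but that value turned to -0.59 when the median of a target's probes was used.

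**Figure D2:**
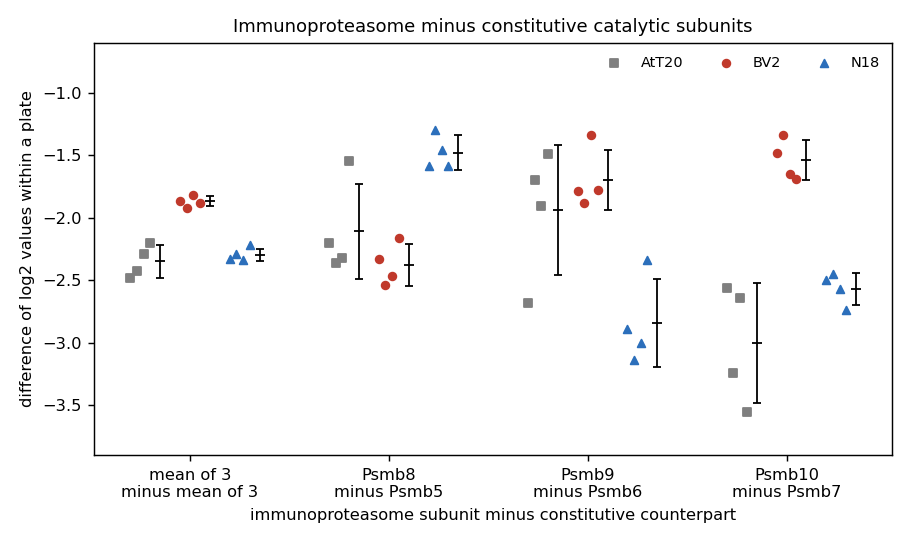
Difference of normalized log2 values within a plate (vertical axis) for the mean of the 3 immunoproteasome minus the mean of the 3 constitutive genes, and for each pair, with 1 point per plate and the mean ± SD of 4 plates. BV2 lies above N18 in the means and in the pairs Psmb9 minus Psmb6 and Psmb10 minus Psmb7, and below it in Psmb8 minus Psmb5.

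The activators held the gene that differed most between BV2 and N18. Psme4, which encodes the nuclear activator of the core linked to histone breakdown, read 12.32, 12.12, 11.98 and 12.29 in BV2 and 13.54, 13.87, 13.64 and 13.54 in N18. The AtT20 plates, at 14.64, 14.19, 13.99 and 13.95, were higher still on this scale only. N18 minus AtT20 was -0.54 here, -0.19 without normalization and 1.20 relative to the seminal proteins, where the median of all features was 0.54. The Psme4 probes disagreed in direction in N18 minus AtT20 (-1.10, 0.45 and -1.06). Psme4 was 2.77-fold lower in BV2 than in N18 (-1.47 ± 0.15, limma adjusted p = 7.42e-07), the largest absolute difference among the 45 genes and rank 1190 of the 25128 features. It was called under all 19 alternatives, from -2.05 to -1.28.

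Psme1 and Psme2 encode the subunits of the interferon-inducible activator that pairs with the immunoproteasome. Psme2 read 12.15, 12.36, 12.26 and 11.95 in BV2 and 11.21, 11.21, 11.25 and 11.17 in N18, without overlap, and 12.27, 12.11, 12.38 and 12.19 on the AtT20 plates. BV2 minus N18 was 0.97 ± 0.12 (1.96-fold, limma adjusted p = 4.57e-06), and its 6 probes lay between 0.69 and 1.09. Without normalization the difference was 0.53 (adjusted p = 0.05, just over the threshold). Psme2b, a copy of this gene, was not separated from it here. Psme1 read 13.76, 13.89, 13.57 and 13.68 in BV2 and 13.56, 13.72, 13.54 and 13.52 in N18, which overlapped, and 12.95, 12.73, 12.62 and 12.81 on the AtT20 plates. Its BV2 minus N18 difference was 0.14 ± 0.11 (limma adjusted p = 0.361). Psme3, the activator of the nucleus, differed by -0.12 ± 0.19 (adjusted p = 0.648). The partners Psme1 and Psme2 therefore had different calls, and the difference between them was not tested.

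Over all 45 genes, 13 were higher and 9 lower in BV2 than in N18, against 19.4% and 19.3% of all features, so that 48.9% of these genes and 38.7% of all features differed in either direction. Among features above the threshold in both lines, 50% of 44 proteasome genes and 47.7% of 11602 features passed in either direction. The median difference of the 45 genes was -0.01, beside 0.03 for all features. Differences were small, with 1 gene (Psmb10) higher and 1 (Psme4) lower by at least 1 on the log2 scale, and every called gene had all its probes in the direction of the call. Each group below held genes of both directions or genes with no call.

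Of the 7 alpha subunits, which form the outer rings and the gate of the core, 1 was higher and 1 lower. Psma4 had a mean of 13.75 in BV2 and 12.96 in N18 (0.79 ± 0.14, limma adjusted p = 0.000295), and Psma2 was lower in BV2 (-0.33 ± 0.11, adjusted p = 0.0272). The Psma2 call was lost with the median of probes (-0.12, adjusted p = 0.786) and without BV2 plate 1 or 3 or N18 plate 2, 3 or 4 (-0.34 to -0.27, adjusted p of 0.0506 to 0.0983). The other 5 alpha subunits differed by -0.29 to 0.12. Of the 4 beta subunits without a proteolytic site, only Psmb3 was called, and it was lower in BV2 (-0.45 ± 0.12, adjusted p = 0.00753), a call lost with log2 averaging of probes (-0.26, adjusted p = 0.0803) and with their median (-0.38, adjusted p = 0.133).

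In the base, whose ring of ATPases unfolds substrates, Psmc2 (0.58 ± 0.12, limma adjusted p = 0.00125) and Psmc1 (0.28 ± 0.11, adjusted p = 0.0491) were higher and Psmc5 was lower (-0.54 ± 0.13, adjusted p = 0.00253), with the other 3 not called. The Psmc1 call was marginal and passed under 5 of 18 other settings that refitted the data. It was lost with the replicate block (0.28, adjusted p = 0.0665), with log2 averaging (0.25, adjusted p = 0.0845) or the median of probes (0.08, adjusted p = 0.872), and when any 1 of the BV2 or N18 plates was left out (0.26 to 0.29, adjusted p of 0.072 to 0.116). Of the 11 other subunits of the regulatory particle, 4 were higher and 4 lower in BV2. Psmd8, a lid subunit, had a mean of 14.32 in BV2 and 13.39 in N18 (0.93 ± 0.13, adjusted p = 1.79e-05). Psmd6 was also higher (0.68 ± 0.14, adjusted p = 0.0011), and Psmd12, another lid subunit, was lower (-0.64 ± 0.11, adjusted p = 0.000242), though not past the threshold with the median of probes (-0.46, adjusted p = 0.0714).

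Among the assembly chaperones, Psmd10, also known as gankyrin, was higher in BV2 (0.81 ± 0.14, limma adjusted p = 0.000244), as was Psmg1 of the core (0.71 ± 0.11, adjusted p = 8.74e-05). Psmd5 (-0.11), Psmd9 (-0.16), Psmg2 (-0.29) and Psmg3 (0.18) were not called. The BV2 and N18 plates overlapped for Psmd5 and Psmd9 but not for Psmg2 and Psmg3. Psmg1 and its partner in the complex, Psmg2, had differences of opposite sign. Psmc3ip, a meiotic recombination factor named for an ATPase it binds, was below the threshold in BV2 and at least 1.4-fold higher in N18 (limma adjusted p = 0.00272). Psme3ip1 was below the threshold in all 3 lines.

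**Figure D3:**
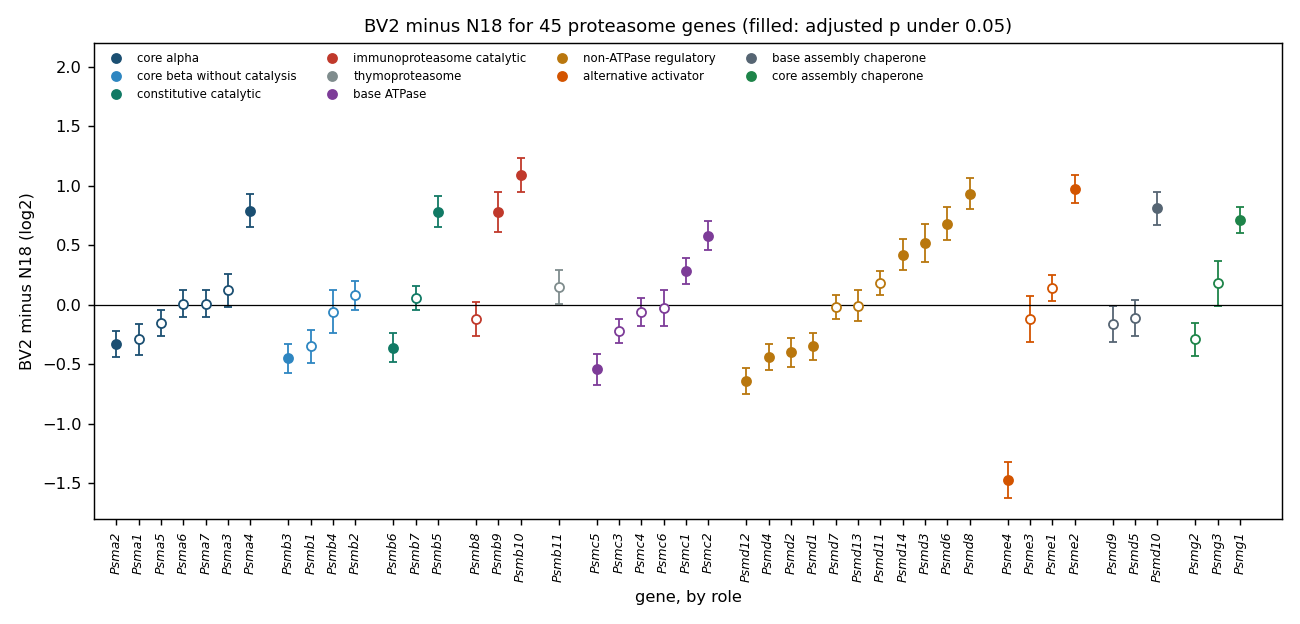
BV2 minus N18 difference (log2, vertical axis) of the 45 proteasome genes, ordered by size within each role (horizontal axis, colors), with the standard error from limma as bars. Filled points passed an adjusted p of 0.05, 13 above 0 and 9 below it, from -1.47 for Psme4 to 1.09 for Psmb10.

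The split between higher and lower depended on how arrays were scaled. Without normalization 1 gene (Psmb10) was higher and 26 lower in BV2, and relative to the seminal proteins 2 were higher (Psmb10 and Psme2) and 17 lower. The median of all features moved from 0.03 to -0.15 and -0.18 under these scales, and the median of the 45 genes from -0.01 to -0.61 and -0.64. Relative to the median of all features, 20 of 45 genes were above it after quantile normalization and 13 under each of the other scales. Against the unnormalized median, Psmb10 stood at 0.72, Psme2 at 0.67, Psmb9 at 0.51, Psmd8 at 0.48 and Psmb5 at 0.32, and Psmb8 at -0.58 and Psme4 at -1.87. Psmb10 and Psme2 ranked highest and Psme4 lowest on both scales. Of the genes called higher after quantile normalization, Psmc1 (-0.35), Psmc2 (-0.03), Psmd3 (-0.10) and Psmd14 (-0.14) turned negative without it. The higher calls of Psma4, Psmd6, Psmd8, Psmd10 and Psmg1 kept their sign and were lost under both other scales, with differences of 0.04 to 0.33.

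**Figure D4:**
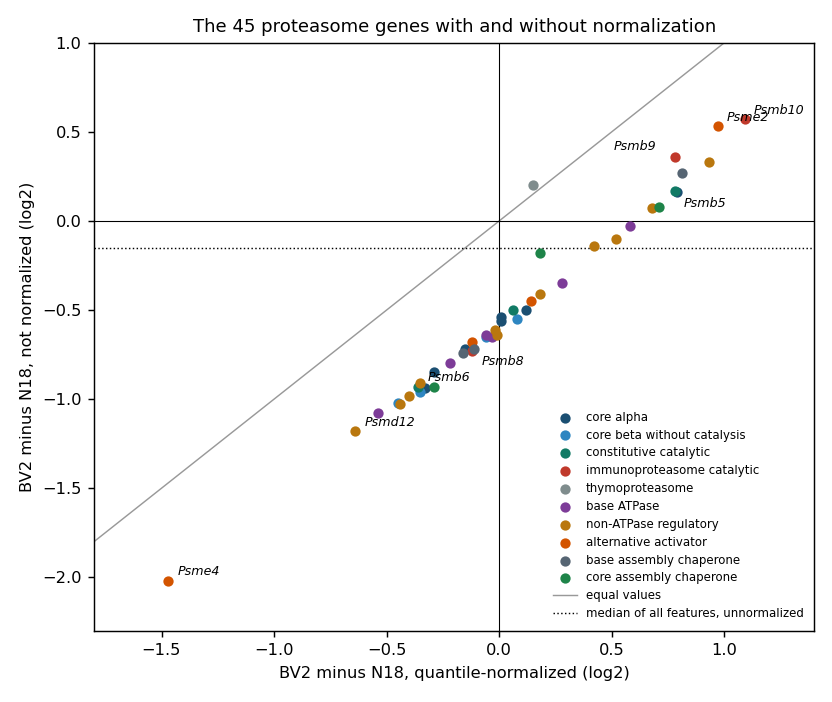
BV2 minus N18 difference (log2) of the 45 proteasome genes without normalization (vertical axis) against the same after quantile normalization (horizontal axis), colored by role. All points but that of Psmb11 lie below the line of equal values, the dotted line marks the median of all features without normalization (-0.15), and Psmb10 and Psme2 are the highest and Psme4 the lowest on both axes.

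Genes of antigen processing and interferon response were counted from a list of 13. Between BV2 and N18, 6 of these were higher in BV2, where 19.4% of all features were, and the other 7 were not called, with a median difference of 0.45 beside 0.03 for all features. Tap1, the neighbor of Psmb9, read 12.87, 12.89, 12.84 and 12.94 in BV2 and 11.05, 11.02, 11.03 and 10.90 in N18, a difference of 1.88 ± 0.23 (3.68-fold, limma adjusted p = 7.48e-06). Tap2, its partner and the neighbor of Psmb8, differed by -0.28 ± 0.19 (adjusted p = 0.271). B2m, the light chain of MHC class I, was 3.58-fold higher in BV2 (adjusted p = 7.82e-09). The heavy chain genes H2-K1 (0.45, adjusted p = 0.164) and H2-D1 (-0.34, adjusted p = 0.14) were not called and differed in sign. Nlrc5, a coactivator of MHC class I genes, was below the threshold in N18 and at least 1.4-fold higher in BV2.

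From 23 genes of proteins that act with the proteasome, 7 were higher and 7 lower in BV2, where 19.4% and 19.3% of all features were, with a median difference of 0.15 beside 0.03 for all features. The deubiquitinase Uchl5 (1.72, limma adjusted p = 2.2e-08) and the adaptor Ecpas (1.14, adjusted p = 2.78e-07) were higher by at least 1. The shuttle factor Ubqln2 was below the threshold in BV2 and at least 6.4-fold higher in N18 (adjusted p = 7.43e-11).

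The comparisons with the plates labelled AtT20 gave more calls and less certain ones. Against AtT20, 18 proteasome genes were higher and 16 lower in BV2, where 31.4% and 39.4% of all features were. N18 against AtT20 gave 16 higher and 17 lower, where 32.8% and 39.6% of all features were. In either direction, 75.6% and 73.3% of the 45 genes differed, near the 70.8% and 72.4% of all features. Both comparisons use the same 4 AtT20 arrays. Of 34 genes called in BV2 against AtT20, 12 had all probes in the direction of the call, and of 33 called in N18 against AtT20, 12 did, while all 22 calls of BV2 against N18 did. For Psmb10 the probes gave 0.12, 0.22 and 3.19 in BV2 minus AtT20. The narrow intensities of the AtT20 arrays stand beside all of these values, and their part in them was not tested. Relative to the seminal proteins the same comparisons gave 30 higher and 3 lower for BV2, and 40 higher and 1 lower for N18. On that scale the medians of all features were 0.28 and 0.54 and those of the 45 genes 1.17 and 1.80.

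**Figure D5:**
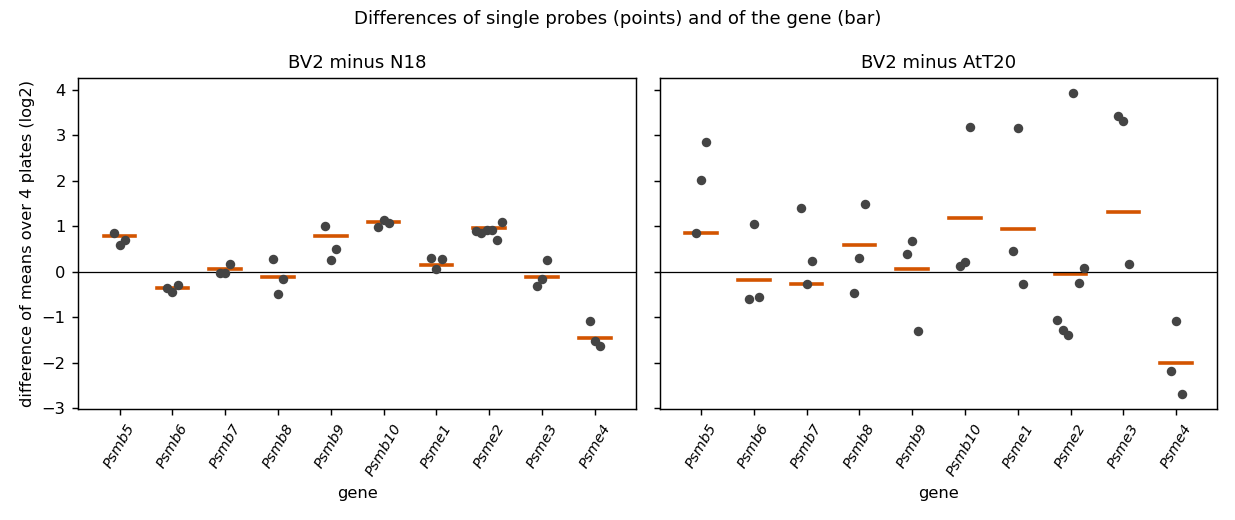
Difference between lines of single probes (points, log2, probes normalized by quantiles) and of the gene (bars) for the catalytic subunits and activators, BV2 minus N18 on the left and BV2 minus AtT20 on the right. The probes of Psmb10 lie close together on the left (0.99 to 1.13) and apart on the right (0.12 to 3.19), while those of Psmb8 lie on both sides of 0 on the left (-0.50 to 0.28).

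Among the 45 genes, Psmd8, Psmg1 and Psmd5 differed most between BV2 and AtT20, and Psmd5, Psmg2 and Psmd8 between N18 and AtT20. The chaperone Psmg3 was not called in either comparison (0.25 and 0.07, limma adjusted p of 0.263 and 0.767). Psmd8 lay 3.11 ± 0.13 higher in BV2 and 2.17 ± 0.13 higher in N18 (limma adjusted p = 4.43e-12 and 2.67e-10). These Psmd8 values ranged from 2.06 to 4.00 and from 1.05 to 3.70 under the alternatives, and 1 of its 3 probes went the other way in both (-0.63 and -1.25). Its level on the AtT20 plates was 0.46 over the controls, with 2 of 4 plates above the threshold. Psmg1, below the threshold on the AtT20 plates, was at least 2.5-fold higher in BV2. Psmd5 was at least 2.2-fold higher in BV2 and at least 3.3-fold higher in N18, and Psmg2 at least 2.3-fold higher in N18. These bounds set the bright line against the threshold of the dim one and take the lowest of the scales used.

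Of the catalytic genes, Psmb10 was higher in BV2 than in AtT20 (1.19 ± 0.14, limma adjusted p = 1.62e-06), though not past the threshold with the median of probes (0.43, adjusted p = 0.0722). Psmb5 (0.85 ± 0.13, adjusted p = 1.76e-05) and Psmb8 (0.58 ± 0.14, adjusted p = 0.0013) were also higher, and Psmb8 fell to 0.10 (adjusted p = 0.668) without normalization. Psmb9 (0.05 ± 0.17, adjusted p = 0.803) and Psmb6 (-0.19 ± 0.12, adjusted p = 0.156) did not pass. Relative to the seminal proteins both were called higher in BV2, at 1.23 (adjusted p = 0.000215) and 0.95 (adjusted p = 0.0147). The median of all features was 0.28 on that scale. With the median of probes Psmb9 turned to -1.45. In N18, Psmb8 was higher than in AtT20 (0.69 ± 0.14, adjusted p = 0.000251) and Psmb9 was lower (-0.73 ± 0.17, adjusted p = 0.0013), the latter turning to 0.90 relative to the seminal proteins. On the AtT20 plates Psmb8 stood 0.45 over the controls, with 3 of 4 plates and 1 of its 3 probes above the threshold. The Psmb8 probes disagreed in direction, at -0.47, 0.29 and 1.49 in BV2 minus AtT20 and -0.75, 0.79 and 1.65 in N18 minus AtT20. Those of Psmb9 in N18 minus AtT20 also disagreed (-0.61, 0.44 and -1.8). Psme1 was higher in both lines than in AtT20 (0.94 ± 0.11 in BV2 and 0.80 ± 0.11 in N18), with adjusted p of 1.33e-06 and 7.21e-06, though 1 of its 3 probes went the other way in each.

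Psmb7 was lower in BV2 (-0.27 ± 0.10, limma adjusted p = 0.0289) and in N18 (-0.33 ± 0.10, adjusted p = 0.00919) than on the AtT20 plates. Relative to the seminal proteins these Psmb7 values turned to 0.83 and 1.37. The probes of Psmb7 disagreed in direction, at 1.39, -0.27 and 0.24 in BV2 minus AtT20 and 1.42, -0.24 and 0.08 in N18 minus AtT20. In BV2 the call was also lost with the median of probes (-0.26, adjusted p = 0.31), when the N18 arrays were kept out of the fit (-0.27, adjusted p = 0.0634), and without AtT20 plate 2 or 4 or BV2 plate 1 or 3 (-0.25 to -0.20, adjusted p of 0.0623 to 0.0856). In N18 it was lost with the median of probes (-0.31, adjusted p = 0.217) and without normalization (-0.02, adjusted p = 0.92). Psme2 was lower in N18 than in AtT20 (-1.02 ± 0.12, adjusted p = 7.21e-07), which turned to 0.66 relative to the seminal proteins and to 0.14 (adjusted p = 0.337) with the target of highest mean, and it was not called in BV2 (-0.06 ± 0.12, adjusted p = 0.68). In N18 against AtT20, Psmb10 (0.11), Psmb5 (0.07) and Psmb6 (0.16) were not called. Relative to the seminal proteins these 3 genes were called higher in N18 (1.68, 1.84 and 1.90, limma adjusted p of 2.64e-07, 2.72e-05 and 2.27e-05). The median of all features was 0.54 on that scale. Psmb6 also passed without normalization (0.51, adjusted p = 0.0273), and Psmb10 turned to -0.67 with the median of probes.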

How the data were processed

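RNA from 12 plates, 4 per line, was measured on NimbleGen single-color arrays with 72000 probes each. The authors extracted the Cy3 intensities with NimbleScan and deposited them as log2 values per probe, and their methods name no background subtraction or normalization between arrays. HEK293 cells, measured on human arrays, were not analysed here. Probe identifiers gave 25631 targets, and 17780 (69.4%) matched a symbol in a RefSeq mouse table, used for names and neighbors only, which left 25128 genes and unnamed targets. Linear intensities of a target's probes were averaged, and the log2 values of a gene's targets after that. Psme2 had 2 targets and 6 probes, and the other 46 genes had 1 target with 3 probes. No probe of these genes was at the upper limit of 16.00. The seminal controls Svs3, Svs7 and Svp2 were found under their present symbols, Svs3a, Pate4 and Svs4.

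Arrays were quantile-normalized and all 12 entered 1 fit of limma 3.58.1 (lmFit, then eBayes with the trend option, under R 4.3.3), with Benjamini-Hochberg adjustment over all features and calls at an adjusted p under 0.05. Expression calls used unnormalized levels over the seminal proteins, as in the study's methods, with 2 SD as the threshold. The p values measure the spread between separately grown plates. Depth has no counterpart here, and precision is limited by having 4 arrays for each line. The limma fit was tested on simulated gene levels with known shifts and the same spread in each line. The simulation held no scaling differences between lines and no disagreeing probes, so it does not bear on those. Motifs were searched in the 250 bases before each start in the RefSeq promoter table (GRCm38.p6). Tables and figures were made with Python 3.11.15, pandas 2.3.3 and matplotlib 3.10.9.

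The catalytic subunits, Psme1 and Psme2 are given in full. The other activators, the chaperones, up to 3 called genes of largest BV2 minus N18 difference per role, up to 3 per comparison with AtT20, and listed genes called with a difference of at least 1 are named. Psma8, Psmf1, Psmg4 and Psme2b had no matched target. The members, gene lists and comparisons were chosen with earlier results of these data known. As alternatives, arrays were left unnormalized or set relative to the seminal proteins, and further settings were log2 or median averaging of probes, the target of highest mean, normexp correction (offset 50), only features above the threshold, only the 8 arrays of a pair in the fit, the replicate number as a replicate block, a minimum difference of 1 and leaving out each plate, and for expression calls olfactory receptor genes as controls (1064), quantile normalization and 3 SD. Normalizing only the 8 arrays of a pair was added after seeing the data. Other genes named in the text (those with motif matches, those below a threshold, markers, Tap2, H2-K1 and H2-D1) were chosen after their values were seen.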

Additional observations from a re-analysis of the deposited data

Results flagged for a closer look

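In 9 of the 141 groups of 4 plates (47 genes in 3 lines), 1 plate lay further from the others than Dixon's test allows at 95%, where chance gives about 1 in 20 groups. On the plates labelled AtT20 these were plate 1 for Psma2 (13.69, others 13.49 to 13.51), Psmc6 (12.49, others 11.75 to 11.83) and Psmd14 (13.85, others 14.28 to 14.31), plate 3 for Psme3 (11.48, others 12.42 to 12.53) and plate 4 for Psmd2 (14.92, others 15.35 to 15.41). In BV2, plate 2 stood apart for Psmd8 (14.24, others 14.35 to 14.36) and Psmg1 (13.13, others 12.79 to 12.84), and plate 3 for Psmg2 (11.85, others 12.11 to 12.14). In N18, plate 2 stood apart for Psmc5 (13.91, others 13.62 to 13.65). All values are quantile-normalized log2 intensities. Psmd8 and Psmg1 stayed higher in BV2 than in N18, and Psmc5 lower, when each plate was left out in turn, with differences of 0.87 to 0.98, 0.63 to 0.74 and -0.59 to -0.48.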

How the results depend on the processing

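In BV2 against N18, no normalization gave 1 proteasome gene higher and 26 lower, levels relative to the seminal proteins gave 2 and 17, a difference of at least 1 gave 1 and 1, and the median of probes left 3 lower. In BV2 against AtT20 the seminal scale gave 30 higher and 3 lower, and a difference of at least 1 gave 11 and 4. In N18 against AtT20 the seminal scale gave 40 and 1, no normalization gave 9 lower, and a difference of at least 1 gave 6 lower. With only the 8 arrays of BV2 and N18 in the fit, 5 of the 47 genes gained a call and 0 lost one. The replicate block gave 12 higher and 9 lower for BV2 against N18, 18 and 16 for BV2 against AtT20, and 16 and 17 for N18 against AtT20. The deviations of plates with the same number correlated at -0.10 to 0.31 across features, with the highest value for plate 2 of BV2 and N18. The labels do not say what the numbers stand for, and a shared slide or day was not tested. Leaving out each plate gave 11 to 12 higher and 6 to 10 lower, 18 higher and 14 to 16 lower, and 16 to 17 higher and 15 to 17 lower in the same order.

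The immunoproteasome minus constitutive difference between BV2 and N18 was 0.48 without normalization and on the seminal scale and 0.55 after normexp correction, and 0.41 to 0.45 without single plates. Between BV2 and AtT20 it was 0.61 after normexp correction and -0.59 with the median of probes. Between N18 and AtT20 (0.05) it turned to -0.10 without normalization and on the seminal scale and to -1.02 with the median of probes. Among genes called in either setting, the sign in BV2 minus N18 turned without normalization for Psma6 (-0.54), Psma7 (-0.56), Psmb2 (-0.55), Psmc1 (-0.35), Psmc2 (-0.03), Psmd3 (-0.10) and Psmd14 (-0.14), and on the seminal scale for Psmc1 (-0.38), Psmc2 (-0.06), Psmd3 (-0.13) and Psmd14 (-0.17). Genes called in neither setting also turned, 5 without normalization (Psma3, Psmb7, Psmd11, Psme1 and Psmg3, at -0.50 to -0.18) and 8 on the seminal scale (these 5, Psma6, Psma7 and Psmb2, at -0.59 to -0.21). In BV2 minus AtT20 it turned on the seminal scale for Psmb6 (0.95), Psmb7 (0.83) and Psme2 (1.15), for Psmb9 with log2 averaging (-0.28) and the median of probes (-1.45), and with no call without normalization (-0.13), and for Psme2 with the target of highest mean (1.06). In N18 minus AtT20 it turned on the seminal scale for Psmb7 (1.37), Psmb9 (0.90) and Psme2 (0.66), for Psmb10 with the median of probes (-0.67) and for Psme2 with the target of highest mean (0.14). The cause was not tested. The number of proteasome genes above the threshold was 32 to 37 on the AtT20 plates and 43 to 44 in BV2 and N18 under every alternative.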
